A study of Mus musculus with 30 samples.

Results

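The 9 genes *Exosc1* to *Exosc9*, which encode the core of the RNA exosome, were read out by name from the gene counts of 23 single mouse embryos, 9 of 55487 genes in the count files. The embryos came from matings of hormone-stimulated *Dis3* heterozygous (het) females with het males, so that wild-type, het and *Dis3* null embryos arose from the same kind of mating. Embryonic day (E) 2.5 was sampled with 6 wild-type, 2 het and 4 null embryos, and E2.75 with 3 wild-type, 5 het and 3 null ones. The null allele was a CRISPR-Cas9 deletion of *Dis3* exons 3 to 5 repaired by end joining, and genotypes were read from the genomic DNA left over from each embryo. The sources used here do not say which founder line or which litter an embryo came from, so the p-values below measure the spread between embryos, which may hold effects of either. The RNA libraries were made from polyadenylated RNA with ERCC spike-in RNA added. A second experiment in the series mapped binding of POU6F1, a POU homeodomain transcription factor, in mouse embryonic stem cells that had carried a transfected Pou6f1-mCherry fusion for 48 h, with 2 replicates. The paper derived its stem cells from *Dis3* flox/flox blastocysts, and the sample labels give no genotype for them.

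The RNA exosome degrades and trims RNA from its 3′ end in the nucleus and the cytoplasm. Its core is a barrel: *Exosc4* to *Exosc9* encode the ring of subunits that resemble bacterial RNase PH but have lost catalytic activity in mammals, and *Exosc1*, *Exosc2* and *Exosc3* encode the S1 and KH domain proteins of the cap, through which RNA enters. Catalysis comes from ribonucleases bound to the core. They are DIS3, which is mainly nuclear, its paralog DIS3L in the cytoplasm and EXOSC10, which is mainly nuclear and nucleolar. In the study of these embryos, DIS3 without its nuclear localization signal rescued *Dis3* null embryos. The paper proposes that DIS3 also acts on mRNA in the cytoplasm. In the early embryo, RNA inherited from the egg is removed while the embryo's own genome is transcribed, so RNA decay and RNA synthesis both set the level of a transcript.

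The promoters of the core genes were searched for chosen motifs and were not aligned with each other. RefSeq promoters (GRCm38.p6, 250 bases before and 50 bases from the transcription start site, TSS) were held for 7 of the 9 members, with none for *Exosc4* and *Exosc9*. Their GC content was 48.0 to 75.7%, against a median of 52.7% over 32851 promoters, and they held 11 to 41 CG pairs, against a median of 7. The promoters of *Exosc3*, *Exosc5* and *Exosc2* are printed 5′ to 3′ on the strand of the gene because each holds a motif that no other member promoter held, which is in capitals, at chr4:45320567-45320866 on the minus strand, chr7:25658903-25659202 on the plus strand and chr2:31670465-31670764 on the plus strand.
Exosc3: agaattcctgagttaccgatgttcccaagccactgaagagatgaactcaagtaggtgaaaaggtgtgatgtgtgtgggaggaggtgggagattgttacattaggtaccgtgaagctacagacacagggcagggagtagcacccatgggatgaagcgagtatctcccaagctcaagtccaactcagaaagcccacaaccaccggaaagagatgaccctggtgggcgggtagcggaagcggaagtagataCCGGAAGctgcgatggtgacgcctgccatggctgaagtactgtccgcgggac
Exosc5: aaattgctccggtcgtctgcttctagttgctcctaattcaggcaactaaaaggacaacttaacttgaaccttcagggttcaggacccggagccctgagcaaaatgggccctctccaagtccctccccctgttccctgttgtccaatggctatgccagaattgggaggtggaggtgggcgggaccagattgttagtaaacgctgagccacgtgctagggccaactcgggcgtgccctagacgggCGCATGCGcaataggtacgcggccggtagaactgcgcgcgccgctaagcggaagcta
Exosc2: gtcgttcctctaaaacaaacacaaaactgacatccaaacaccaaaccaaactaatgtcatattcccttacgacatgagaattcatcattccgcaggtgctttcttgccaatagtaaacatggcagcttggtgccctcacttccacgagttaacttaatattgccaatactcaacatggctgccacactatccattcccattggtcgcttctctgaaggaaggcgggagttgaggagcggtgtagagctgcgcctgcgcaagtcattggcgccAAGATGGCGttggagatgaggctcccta

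The *Exosc3* promoter held the ETS-type motif CCGGAAG from base -2 to base 4, counting the TSS as 0, a motif found in 8.86% of all promoters. The *Exosc5* promoter held the NRF1-type motif CGCATGCG from base -7 to base 0, found in 1.87% of all promoters. The *Exosc2* promoter held the YY1-type motif AAGATGGCG from base 22 to base 30, found in 1.40%. Both strands were searched for the exact letters only, so near variants in other member promoters were not counted. The motifs were chosen with the member promoters in view, and a match is a description of the letters and not of a bound site. The CCAAT box (CCAAT) was in 3 of 7 member promoters and in 37.4% of all promoters, and the GC box (GGGCGG) was in 5 of 7 and in 35.7%. The TATA box (TATAAA) was in 0 of 7 and in 13.6% of all. The homeodomain motifs TAATTA and TAATGA were also in 0 of 7, against 5.29% and 9.78% of all promoters.

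The core genes are spread over the genome and most start beside another gene. In the GENCODE vM21 annotation of GRCm38, the cap genes lie on chromosome 19 from 41922292 to 41933423 (*Exosc1*, minus strand), chromosome 2 from 31670715 to 31681349 (*Exosc2*, plus) and chromosome 4 from 45316613 to 45342732 (*Exosc3*, minus). The ring genes lie on chromosome 15 from 76327397 to 76330677 (*Exosc4*, plus), chromosome 7 from 25659164 to 25671368 (*Exosc5*, plus), chromosome 9 from 123113215 to 123136129 (*Exosc7*, plus) and chromosome 3, which holds *Exosc8* from 54728678 to 54735393 (minus) and *Exosc9* from 36552606 to 36565727 (plus). Of the 9, 6 (66.7%) had a TSS of a gene on the opposite strand within 1 kb of their own, as had 31.5% of 13399 tested genes. The partners were *Zdhhc16* for *Exosc1* at 57 bp, *Zdhhc3* for *Exosc7* at 10 bp, *Alg5* for *Exosc8* at 146 bp, *Bckdha* for *Exosc5* at 183 bp, *Oplah* for *Exosc4* at 424 bp and *Dcaf10* for *Exosc3* at 550 bp. The *Exosc3* TSS beside *Dcaf10* is the far upstream one at 45342732, whereas the RefSeq TSS of the promoter printed above is at 45320616. Reads were counted without regard to strand, and reads in an exon shared by 2 genes were set aside as ambiguous. The shared stretch was 19.8% of the exon bases of *Exosc4* (with *Oplah*), 12.4% of *Exosc2* (with *Gm13427*), 10.8% of *Exosc9* (with *Ccna2*), 5.66% of *Exosc5* (with *Tmem91*), 4.00% of *Exosc3* (with *Dcaf10*) and 2.05% of *Exosc8* (with *Supt20*).

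*Exosc6*, a ring subunit, could not be measured. Its single exon (chromosome 8, 111056339 to 111057664, 1326 bp) lay whole within an exon of *Aars* on the same strand, and its count was 0 in all 23 libraries. Any read of *Exosc6* would have been ambiguous, so this 0 says nothing about its transcript level. The other 8 members were counted in every library, at 117 to 5187 reads per gene and library, and passed the low-count filter of each fit. Libraries held 1690192 to 14015980 gene counts, with a median of 8030848. Levels are given as CPM, the gene's share of a library's gene counts scaled to a common total and corrected by trimmed mean of M values (TMM).

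The members were well expressed but not at equal levels. In the 9 wild-type embryos *Exosc3* stood first at 154 ± 59.6 CPM per kb of exon (SD, n = 9), above 97.0% of 13399 genes. *Exosc4* was next at 54.8 ± 13.2 CPM per kb. *Exosc8* (39.0 ± 15.0), *Exosc9* (37.4 ± 13.6), *Exosc7* (36.7 ± 15.4), *Exosc2* (33.3 ± 9.10), *Exosc5* (26.7 ± 8.02) and *Exosc1* (23.9 ± 6.97 CPM per kb) followed, and *Exosc1* was still above 82.5% of genes. *Exosc3* was above *Exosc4* in 9 of 9 embryos, by a mean log2 ratio of 1.42 (SD 0.67). No other pair of neighbours in this order was separated beyond the spread of their ratio over embryos. The order below *Exosc3* moved with the length used, since 3 of 8 members kept their rank when the longest transcript replaced all exons, with *Exosc3* still first. Over the 8 wild-type embryos other than replicate 6 of E2.5, *Exosc3* was at 155 ± 63.6 CPM per kb. Over all 9 wild-type embryos *Exosc10* was at 32.5 ± 18.0, *Dis3* at 11.4 ± 5.62 and *Dis3l* at 1.08 ± 2.16 CPM per kb. The *Dis3l* mean includes replicate 6 of E2.5, which held the highest value, 6.81 CPM per kb.

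**Figure D1:**
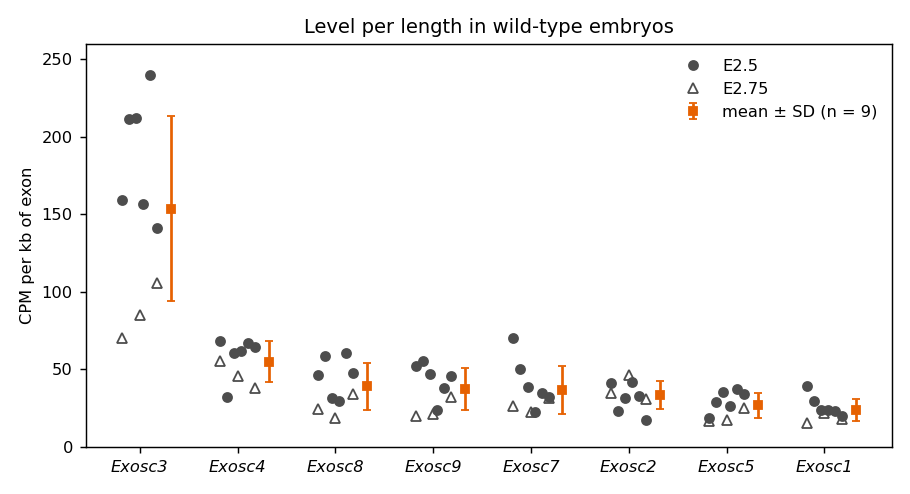
Level of each measured member in CPM per kb of exon in the 9 wild-type embryos (points, one per embryo, with mean and SD). *Exosc3* at 154 CPM per kb stood apart from the other members, whose means were 23.9 to 54.8 CPM per kb.

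*Dis3*, the deleted gene, was lower in every null embryo than in every het embryo, while wild-type embryos overlapped both. Across both stages *Dis3* ranged from 18.1 to 146.8 CPM in wild-type embryos, from 30.4 to 59.2 CPM in het embryos and from 0 to 21.5 CPM in null embryos. Reads from the exons that the deletion leaves can still be counted. *Dis3* fell in null embryos against het embryos (log2 fold change -2.06, SE 0.53, adjusted p = 0.0253) and against wild-type embryos (-3.01, adjusted p = 0.000943, and -3.14 without the library described next), both from the quasi-likelihood test of edgeR, adjusted by Benjamini-Hochberg. The E2.5 library labelled wild-type replicate 6 was the lowest wild-type value at 18.1 CPM, inside the null range, and E2.5 wild-type replicate 5, at 40.2 CPM, lay inside the het range. The *Dis3l* level of replicate 6 was 37.2 CPM against 0.556 to 4.83 CPM in the other wild-type embryos. Without this library 0 members passed in any genotype comparison with wild-type embryos or in the test of the stage difference by genotype, and other results that moved are given without it as well. *Dis3l* was higher in null than in het embryos with the stages combined (2.73, adjusted p = 0.0840). It was at 15.0 to 55.4 CPM in null and 2.13 to 4.42 CPM in het embryos of E2.5. At E2.75 the ranges overlapped, at 3.45 to 9.97 CPM in null and 0.422 to 6.03 CPM in het embryos. The difference of *Dis3l* from wild-type embryos missed the threshold (1.80, adjusted p = 0.253) but passed without replicate 6 (3.37, adjusted p = 0.00374). *Exosc10* differed by 0.08 from het and by -0.32 from wild-type embryos (adjusted p = 0.930 and 0.725).

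The first question was whether loss of *Dis3* changed the transcripts of the core to which DIS3 binds. No member passed the threshold of adjusted p under 0.1 between null and het embryos with the stages combined (0 of 8 by edgeR, 3 at an unadjusted p under 0.05, 0 by DESeq2), when 6.48% of 13415 genes did, although 5 passed as lower when libraries were scaled to the ERCC spike-ins, a scale on which 39.8% of all genes passed as lower. Of the 8, 6 were higher and 2 lower in null embryos, with a median log2 fold change of 0.44 against 0.02 over all genes. Compared within a stage, the median was 0.21 at E2.5 (5 higher, 3 lower) against 0.03 over all genes. At E2.75 it was 0.01 (4 higher, 4 lower) against -0.04. Nor did a member pass between null and wild-type embryos, where 5.87% of genes did.

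Among cap genes, *Exosc3* was at 99.5, 258 and 359 CPM (lowest, median and highest) in the 7 null embryos, at 102, 151 and 277 CPM in the 7 het embryos and at 93.2, 207 and 318 CPM in the 9 wild-type embryos. The 3 ranges lay over each other, and null embryos differed from het embryos by a log2 fold change of 0.52 (95% interval -0.10 to 1.14, adjusted p = 0.390). *Exosc1* differed by 0.36 (-0.15 to 0.86) and *Exosc2* by -0.36 (-0.81 to 0.08). All 3 intervals included 0, so no direction was shown for the cap genes.

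Among ring genes, *Exosc5* was 0.55 higher in null than in het embryos (95% interval 0.05 to 1.05, adjusted p = 0.234) and *Exosc7* 0.56 higher (0.00 to 1.12, adjusted p = 0.285). *Exosc4* was lower, with a log2 fold change of -0.47 (-0.93 to -0.02, adjusted p = 0.266). These 3 were the members at an unadjusted p under 0.05, and none passed after adjustment over all genes. *Exosc9* differed by 0.52 (-0.12 to 1.16) and *Exosc8* by 0.19 (-0.40 to 0.78). The stages were not balanced between genotypes, since 2 of 7 het but 4 of 7 null embryos were from E2.5. With stage as a term, the differences were 0.15 for *Exosc3*, 0.45 for *Exosc5*, 0.40 for *Exosc7*, -0.59 for *Exosc4* (adjusted p = 0.111) and -0.05 for *Exosc8*.

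Against the 9 wild-type embryos, which are shared by the next comparisons, the members' log2 fold changes in null embryos ran from -0.29 (*Exosc2*) to 0.19 (*Exosc9*), with adjusted p of 0.569 to 0.941. All 8 intervals lay between -0.79 and 0.79, so a change beyond that was outside the 95% interval for each member. No member was at an unadjusted p under 0.05, DESeq2 passed 0, and the median was 0.11 against -0.02 over all genes. Without the E2.5 library labelled wild-type replicate 6 the values were -0.37 to 0.24, and again 0 passed. Between het and wild-type embryos the members differed by -0.42 to 0.31 (adjusted p 0.740 to 0.963, 0 at an unadjusted p under 0.05, 0 by DESeq2), with a median of -0.35 against -0.03. Here too the stages were unbalanced, since 2 of 7 het but 6 of 9 wild-type embryos were from E2.5. With stage as a term the value of *Exosc3* changed sign, to above 0. In that comparison edgeR passed 0% of genes, with 934 at an unadjusted p under 0.05, and DESeq2 passed 37 up and 30 down.

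**Figure D2:**
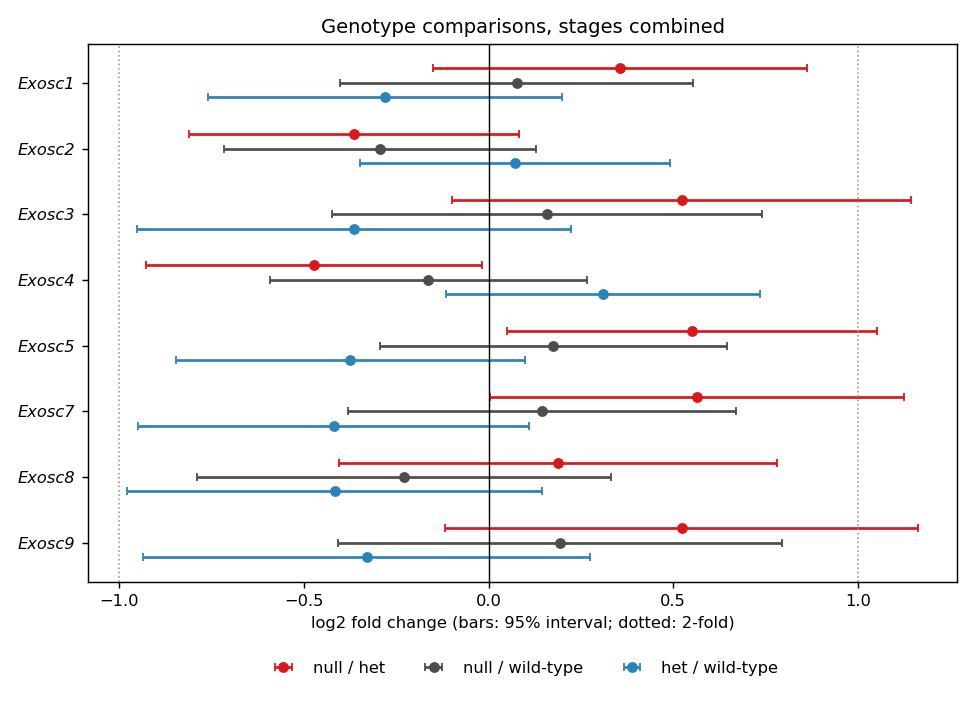
Log2 fold change of each measured member between genotypes with 95% intervals from edgeR, comparisons in different colours, stages combined. No member passed an adjusted p of 0.1, and the null against wild-type values lay between -0.29 and 0.19.

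Within each stage no member passed between genotypes in edgeR with TMM scaling. At E2.5 the members' log2 fold changes were -0.56 to 0.34 against het (lowest adjusted p = 0.654, in a comparison that passed 0.0126% of genes and rests on 2 het embryos) and -0.36 to 0.25 against wild-type embryos (lowest adjusted p = 0.636, with 1.86% of genes passed). At E2.75 they were -0.84 to 0.61 against het, where 5.08% of genes passed, and -0.35 to 0.47 against wild-type embryos (lowest adjusted p = 0.477), where 4.69% of genes passed. No member passed in these 4 comparisons by edgeR, and 2 had an unadjusted p under 0.05, *Exosc4* and *Exosc5* against het at E2.75. DESeq2 passed 1 member, against het at E2.75, where it passed 6.75% of 15993 genes as higher and 5.31% as lower. Against het on the ERCC scale, 3 members passed at E2.5 and 2 at E2.75, where 12.1% and 16.6% of all genes passed as lower.

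The member that DESeq2 passed was *Exosc4*, a ring subunit. At E2.75 *Exosc4* was at 57.7, 83.6 and 84.3 CPM in null embryos, at 120.9, 100.1, 114, 139 and 182 CPM in het embryos and at 108, 88.4 and 73.5 CPM in wild-type embryos. Every null embryo was below every het embryo, as for 13.7% of genes whose ranges did not overlap in either direction, while null and wild-type ranges overlapped. The log2 fold change against het was -0.84 (95% interval -1.41 to -0.26, adjusted p = 0.119 by edgeR), and -0.75 with an adjusted p of 0.0534 by DESeq2. On the ERCC scale it was -1.53 (adjusted p = 0.0239), which is -0.79 relative to the median gene. Without E2.75 het replicate 2 it was -0.91 (adjusted p = 0.0955). Against wild-type embryos it was -0.30 (-0.93 to 0.32).

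**Figure D3:**
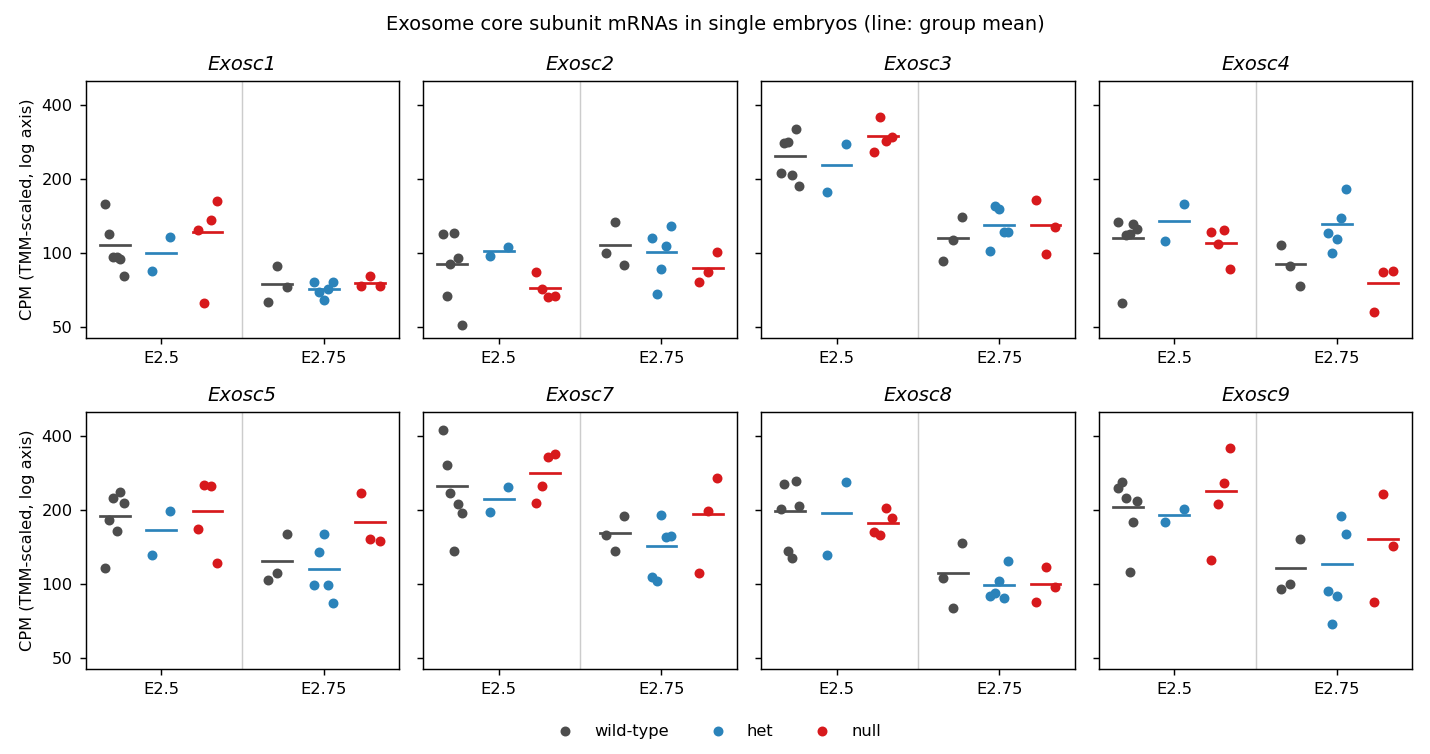
CPM of each measured member in all 23 embryos (log axis), by genotype and stage, one point per embryo. For *Exosc3* the E2.75 embryos (93.2 to 164 CPM) lay below all E2.5 embryos (177 to 359 CPM).

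The next question was how the core transcripts differed between the stages. Relative to the other genes, 2 of the 8 members fell from E2.5 to E2.75 in wild-type embryos, *Exosc3* and *Exosc8*, and neither passed on the ERCC scale. Of 18677 genes 8.61% passed, and 7.38% also changed beyond 2-fold, as *Exosc3* did. A fall here is one of relative level in a whole embryo, in which fewer cells of a type and less RNA per cell cannot be told apart. In all 7 of 8 members were lower at E2.75, with a median log2 fold change of -0.62 against -0.00 over all genes, and the exception was *Exosc2*.

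*Exosc3*, in the cap, had the lowest fold change of the 8 members in wild-type embryos. It was at 187, 245.5 and 318 CPM (lowest, median and highest) in the 6 wild-type embryos of E2.5 and at 93.2, 113 and 140.1 CPM in the 3 of E2.75. The groups did not overlap, as for 14.6% of 13415 genes. The log2 fold change was -1.10 (95% interval -1.62 to -0.58, adjusted p = 0.0112), a fold of 0.466, and -1.17 (adjusted p = 0.00729) without the E2.5 library labelled wild-type replicate 6.

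In null embryos *Exosc3* was at 258, 359, 285 and 295 CPM on E2.5, and the 3 embryos of E2.75 held 164, 99.5 and 128 CPM. These groups did not overlap either, and the log2 fold change was -1.21 (-1.76 to -0.66, adjusted p = 0.0225). It was the 1 member of 8 that passed in null embryos with TMM scaling, where 3.32% of genes passed and 3% also changed beyond 2-fold. Without E2.75 null replicate 2 the value was -1.05 (adjusted p = 0.135). In het embryos *Exosc3* was at 177 and 277 CPM on E2.5, against 102, 155, 151, 122 and 122 CPM on E2.75, and the log2 fold change of -0.81 (-1.38 to -0.25) did not pass (adjusted p = 0.328). In each genotype every E2.75 embryo was thus below every E2.5 embryo, as for 1.56% of genes.

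The test of whether the stage difference itself depended on *Dis3* passed no member, with differences of -0.20 to 0.44 and adjusted p of at least 0.786 by edgeR. None had an unadjusted p under 0.05, DESeq2 passed 0, and edgeR passed 0% of all genes (2046 at an unadjusted p under 0.05, with 230 up and 130 down by DESeq2). For *Exosc3* this difference was -0.11, with an interval of -0.84 to 0.61 that leaves room for differences of either sign.

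*Exosc8*, in the ring, was at 127, 204.5 and 263 CPM (lowest, median and highest) in wild-type embryos of E2.5 and at 106, 79.6 and 147 CPM in those of E2.75, so the groups overlapped. Its log2 fold change was -0.84 (-1.43 to -0.26, adjusted p = 0.0853), and it lost the call without the E2.5 library labelled wild-type replicate 6 (-0.83, adjusted p = 0.101) and without any 1 of 5 other embryos (adjusted p 0.107 to 0.320). In null embryos *Exosc8* was at 163, 158, 204 and 185 CPM on E2.5, against 84.8, 117 and 97.5 CPM on E2.75. These groups did not overlap, as for 14.7% of genes, yet the log2 fold change of -0.84 did not pass (adjusted p = 0.163). In het embryos it was -0.98 (adjusted p = 0.278).

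The remaining members did not pass. In wild-type embryos the log2 fold changes were -0.83 for *Exosc9*, -0.63 for *Exosc7*, -0.60 for *Exosc5* and -0.36 for *Exosc4* in the ring and -0.52 for *Exosc1* in the cap, with adjusted p of 0.196 to 0.508. In null embryos they were -0.65, -0.56, -0.17, -0.56 and -0.70 in the same order (adjusted p 0.257 to 0.866). *Exosc2* was the 1 member with a positive value in both, 0.25 and 0.26 (adjusted p = 0.693 and 0.748). In het embryos, a comparison added after the others were seen and one that passed 0.278% of genes, 8 of 8 members were negative with a median of -0.59 against 0.12, and 0 passed by edgeR or DESeq2, with 2 at an unadjusted p under 0.05.

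**Figure D4:**
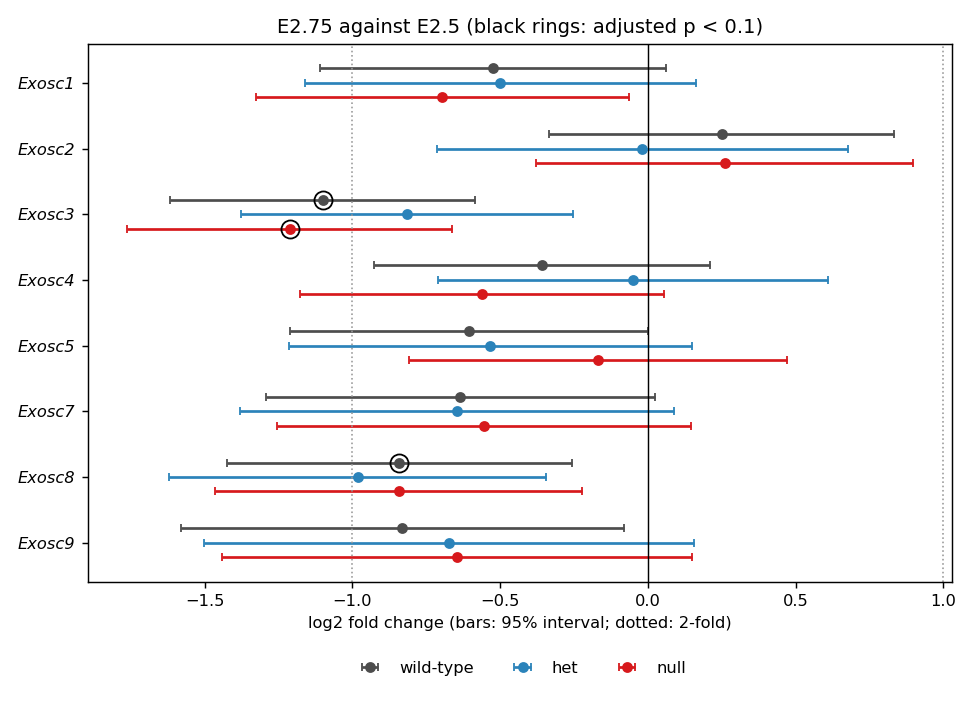
Log2 fold change of each measured member from E2.5 to E2.75 with 95% intervals from edgeR, by genotype. *Exosc3* was at -1.10 in wild-type and -1.21 in null embryos, and *Exosc2* was above 0 in both.

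The stage values are relative to all gene counts. Scaled to the ERCC spike-ins, the median of all genes was 0.89 higher at E2.75 than at E2.5 in wild-type and 0.97 higher in null embryos. On that scale *Exosc3* differed by -0.09 in wild-type embryos (adjusted p = 0.894), which is -0.98 relative to the median gene, and by -0.28 in null embryos (adjusted p = 0.646), which is -1.25 relative to it, so that its call was lost in both. The other 7 members were above 0 on that scale in wild-type embryos, *Exosc8* at 0.25, and *Exosc2* became the 1 member past the threshold, at 1.17 in wild-type (adjusted p = 0.0491) and 1.24 in null embryos (adjusted p = 0.0881), where 17.6% and 10.6% of all genes passed as higher. Between null and het embryos the ERCC-scaled median of all genes was -1.08, and there *Exosc1*, *Exosc2*, *Exosc3*, *Exosc4* and *Exosc8* passed as lower, with values of -0.69 to -1.64, of which -0.36 and -0.56 for *Exosc2* and *Exosc4* and 0.17 to 0.39 for the others were relative to the median gene.

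Markers of the embryo did not move together with stage. The summed CPM of 12 preimplantation markers was 10020 to 19950 at E2.5 and 5574 to 7471 at E2.75, most of it *Dppa3* (3598 to 17740 CPM), and *Sox2* was at 0 in 11 embryos. Of the 12, 2 passed as lower at E2.75 in wild-type embryos by edgeR, as did 4.67% of all genes. Among them was *Dppa3* (log2 fold change -1.66, adjusted p = 0.000137), while 8 of the 12 were above 0 (median 0.15) and 10 of 12 in null embryos (median 0.49). The 10 cumulus and granulosa markers summed to at most 18.9 CPM in any embryo, with *Ptx3* and *Inhba* at 0 in all 23. Between null and het embryos 2 of the 12 fell, *Gata3* (-2.12) and *Krt18* (-2.96). The share of reads assigned to no exon was 32.3 to 43.9% in null embryos, and at most 27.9% in het and 33.4% in wild-type embryos. The part of these in the members' values was not tested.

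Partners of the core moved both ways between the stages. Of 16 cofactors and adaptors that bring RNA to the exosome, 3 rose and 3 fell in wild-type embryos from E2.5 to E2.75, where 8.61% of all genes passed, and in null embryos 1 rose (*Hbs1l*) and 1 fell (*Wdr61*), where 3.32% did. *Srrt*, which links capped RNA to decay, rose by 1.43 (adjusted p = 0.0162), as did *Skiv2l*, the helicase of the cytoplasmic Ski complex, by 3.16 (adjusted p = 0.0730, and 0.106 without replicate 6 of E2.5), and *Hbs1l*, which has an isoform that joins Ski to the exosome, by 2.69 (adjusted p = 0.0671). *Mphosph6*, a nuclear cofactor of the core, fell by 1.72 (adjusted p = 0.0115), *Wdr61*, a Ski subunit, fell by 1.08 (adjusted p = 0.0179) and *Nvl*, a nuclear ATPase, fell by 0.69 (adjusted p = 0.0958). By genotype 0 of 16 passed between null and het embryos (1 at an unadjusted p under 0.05), and *Zfc3h1*, which brings polyadenylated nuclear RNA to the exosome, rose in null against wild-type embryos by 1.07 (adjusted p = 0.0864). Of 18 genes of 5′ to 3′ decay and deadenylation, 0 passed in either genotype comparison or between the stages in wild-type embryos (1, as lower, without replicate 6 of E2.5), and in null embryos *Pan2* (2.39) and *Pan3* (-1.20), the subunits of a deadenylase, passed between the stages. The cofactor names were chosen after their values were seen.

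Over all 23 embryos, the standard deviation of log2 CPM was lowest for *Exosc2* (0.36) and highest for *Exosc9* (0.63), and genes of like level had medians of 0.54 to 0.60. The members together took 1039 to 1490 CPM before TMM in the 12 embryos of E2.5 and 873 to 1206 CPM in the 11 of E2.75. Likeness to the mean profile of the 8 members was measured as the root mean square difference of centred log2 CPM over the 23 embryos, which share their library and depth. The nearest non-members were *Psma6*, a proteasome subunit (0.204), *Nsmce4a* (0.208) and *Ndufs8*, a subunit of respiratory complex I (0.209), against 1.24 for the median gene. The SD of the mean profile itself was 0.320, about the value that a gene constant over the embryos would have. The members themselves were at 0.265 (*Exosc1*) to 0.518 (*Exosc2*), so *Exosc2* was the member least like the others. The correlation of a member with the mean of the other members was -0.349 for *Exosc2*, 0.137 for *Exosc4* and 0.318 for *Exosc5*. For the rest it was 0.671 (*Exosc1*) to 0.844 (*Exosc8*).

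POU6F1 peaks lay near most core genes, as near most expressed genes. In the first of 2 deposited peak lists per replicate, 8 of 9 members had a peak within 1 kb of a TSS in both replicates, and so did 65.4% of 13399 tested genes. In the second list 2 of 9 did, *Exosc5* and *Exosc9*, against 23.9% of genes. Replicate 1 alone had a peak at all 9 members in each list, as at 11120 of 13399 genes in the first list and 10277 in the second, and the difference lay in replicate 2, whose lists held 24524 and 3630 peaks against 82694 and 31348 in replicate 1. By the study's numbering, the first list was called against IgG in the cells with the fusion and the second against cells that carried mCherry alone. The series held 1 library of each control, so the replicates had no separate controls there.

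The strongest peaks lay at *Exosc1*, *Exosc5*, *Exosc8* and *Exosc9*. In the first list *Exosc5* was at 25.9-fold in replicate 1 and 7.27-fold in replicate 2, *Exosc1* at 23.8-fold and 7.91-fold, *Exosc8* at 22.3-fold and 7.73-fold and *Exosc9* at 22.3-fold and 7.65-fold, so that *Exosc5* was highest in replicate 1 and the lowest of these in replicate 2. The median peak of that list was 5.61-fold and 4.84-fold. In the second list *Exosc5* was at 20.4-fold and 5.63-fold and *Exosc9* at 14.8-fold and 3.89-fold. *Exosc2* was 12.1-fold in replicate 1 and was the member with no peak in replicate 2. Of the 8 members with a peak in both replicates of the first list, 7 had the summit within 87 bp of the nearest annotated TSS in each replicate. That nearest TSS differed between the replicates for *Exosc4* (76327591 and 76327397) and for *Exosc8*. From the RefSeq TSS the *Exosc1* summits lay at -152 and -119 bp and the *Exosc5* summits at -30 and -71 bp. Those of *Exosc8* lay at 299 bp in replicate 1 and at 369 and -47 bp in replicate 2.

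The *Exosc3* peak was not at the promoter printed above. The peak shared by both replicates was 10.4-fold and 4.16-fold, with its summit 640 to 656 bp from the member's far upstream TSS and 9 to 25 bp from that of *Dcaf10* on the opposite strand. At the RefSeq promoter of *Exosc3*, replicate 1 had a 6.23-fold peak in the first list and replicate 2 had none. Peaks close to a shared or neighbouring TSS cannot be assigned to 1 gene. For *Exosc1*, *Exosc3* and *Exosc7* the shared peaks had summits 0 to 47 bp from the TSS of the neighbour. The limit also covers *Exosc5*, whose promoter peaks had summits 101 to 148 bp from the *Bckdha* TSS. It covers *Exosc8* too, with first-list summits 474 bp from the *Alg5* TSS in replicate 1 and 128 and 544 bp in replicate 2. For *Exosc4* the summits lay 449 to 705 bp from the *Oplah* TSS.

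**Figure D5:**
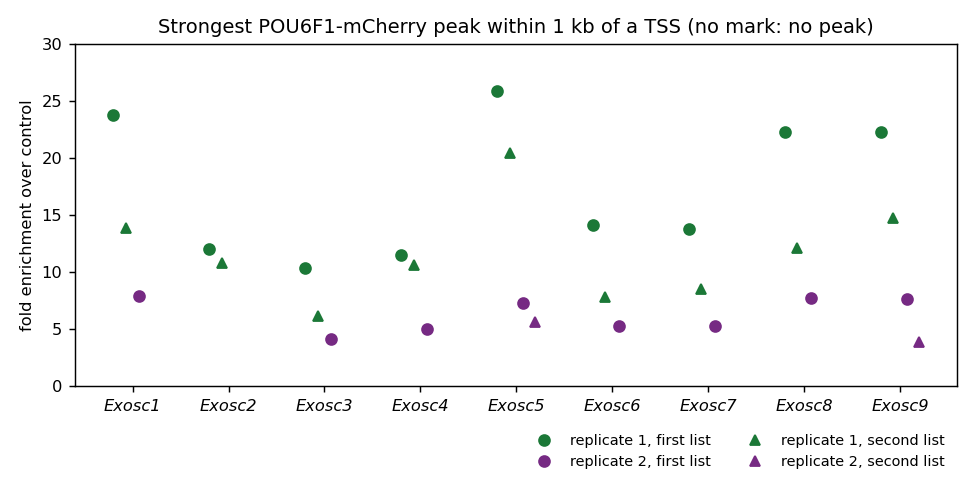
Fold enrichment of the strongest POU6F1 peak within 1 kb of a TSS of each member, by replicate and peak list. Replicate 1 had a peak at all 9 members in both lists, whereas in the second list replicate 2 had one at *Exosc5* (5.63-fold) and *Exosc9* (3.89-fold).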

How the data were processed

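RNA was taken from single embryos on oligo-dT beads and amplified by template switching. Per the labels and methods, the authors quality-trimmed reads with Cutadapt 3.4, used STAR 2.7.8a for alignment to GRCm38 and HTSeq 0.11.4 for counting (intersection-strict, no strand), and deposited raw counts per gene. For ChIP-seq the authors aligned with Bowtie2 2.4.4 and called peaks per replicate with MACS2 2.2.7.1, and the deposited lists hold a score, a fold enrichment, a −log10 p and a −log10 q for each peak.

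Counts of 55487 genes were tested with edgeR 4.0.16 (R 4.3.3), TMM scaling and its quasi-likelihood test, and p was adjusted over all genes by Benjamini-Hochberg. A gene passed at an adjusted p under 0.1, and was called beyond 2-fold with also a log2 fold change beyond 1. DESeq2 1.42.0, RLE and ERCC scaling, no filter, stage as a term, a replicate block and leaving out each embryo were alternatives. The members and all gene lists were chosen with earlier results of these data known. Scripts were tested on simulated data. The genes named are the 9 members, the 3 exosome ribonucleases, at most 3 genes per direction and list that passed between null and het or wild-type embryos, and the 3 genes nearest in profile. Partners that passed between stages, markers and neighbouring genes named beside these were chosen after their values were seen or for their position. Same-numbered embryos are not stated to share a litter or a batch. The 38 pairs of same-group libraries all differed by more than sampling noise.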

Additional observations from a re-analysis of the deposited data

Results flagged for a closer look

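*Exosc4*, a ring subunit, was at 62.9 CPM in E2.5 wild-type replicate 2, whereas the other 5 wild-type embryos of E2.5 were at 118 to 133 CPM, a gap large against the range of the group. Such a gap was looked for in 24 groups of 4 or more embryos (8 members measured) and was met in this 1, and chance gives about 1 in 20. Its part in any comparison is covered by the fits without that embryo.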

How the results depend on the processing

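The counts of members past the threshold moved with the scaling more than with any other setting. Scaled to the ERCC spike-ins, null against het embryos passed 5 members (2 beyond 2-fold) with the stages combined, 3 (3 beyond 2-fold) at E2.5 and 2 (1 beyond 2-fold) at E2.75, beside 39.8%, 12.1% and 16.6% of all genes lower on that scale. DESeq2 passed 1 against het at E2.75, beside 6.75% of all genes higher and 5.31% lower. On the ERCC scale the stage comparison passed *Exosc2* alone, in wild-type and in null embryos. The wild-type stage comparison also passed 1 with RLE size factors (*Exosc8* -0.75, adjusted p = 0.129) and 1, with 0 beyond 2-fold, with no filter on low counts (*Exosc3* -0.99, adjusted p = 0.0708). Leaving out single embryos gave 0 to 1 member for null against het embryos at E2.75, 1 to 2 (0 to 2 beyond 2-fold) for the wild-type stages, with *Exosc3* at -0.97 to -1.26 and past the threshold in each, and 0 to 1 for the null stages, 0 being without E2.75 null replicate 2. *Exosc3* was under 2-fold without E2.75 wild-type replicate 1 (-0.97). Wild-type *Exosc8* lost its call without E2.5 wild-type replicates 1, 2, 5 and 6 and E2.75 wild-type replicates 1 and 2, and *Exosc4* at E2.75 gained one without E2.75 het replicate 2.

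Values near 0 changed sign without passing. In null against het embryos *Exosc8* was -0.047 with stage as a term. In null against wild-type embryos *Exosc1* was -0.0059 with no filter and -0.080 to 0.20 with 1 embryo left out (below 0 without E2.5 null replicate 3 or 4), and *Exosc9* was -0.0079 to 0.28 (below 0 without E2.5 null replicate 4). In het against wild-type embryos *Exosc3* was 0.075 with stage as a term, and *Exosc2* was -0.013 to 0.15 with 1 embryo left out, below 0 without the E2.5 library labelled wild-type replicate 6. In het embryos between the stages *Exosc2* was 0.063 with RLE, 0.047 with no filter, 0.065 with DESeq2 and -0.12 to 0.099 with 1 embryo left out, and *Exosc4* was 0.031, 0.015, 0.031 and -0.27 to 0.20. The causes were not tested. Of 245 fold changes of single members under other settings, 219 kept direction (on the ERCC scale, relative to the median gene) and call.

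With the replicate number as a block, het against wild-type values became -0.14 for *Exosc2*, 0.099 for *Exosc3* and 0.013 for *Exosc5*, and 0 members passed in any genotype comparison, as without it. Over all genes the block passed 222 up and 121 down between null and het embryos against 550 and 319 without it. Same-numbered embryos did not deviate together (r of -0.106 to 0.0858). Whether they shared a litter or a batch is not given in the sources used here. The block could not be fitted for the stage comparisons, since numbers lie within a stage.

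The order of members by level kept 3 of 8 ranks with the longest transcript and 5 to 8 with 1 embryo left out. The members with a peak in both replicates of the first list were 4 at a −log10 q of at least 10 (29.0% of all genes) and 3 at 50% reciprocal overlap (31.4%), and in the second list 0 (7.83%), 1 (6.99%), and 2 to 9 with 1 replicate left out (24.1 to 76.7%). With 2 het embryos at E2.5, and with 117 to 5187 reads per measured member and library, the spread between embryos, and not counting error, limits these values.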
